A study of Mus musculus with 4 samples.

Results

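The genes of glucose uptake, glycolysis, lactate and pyruvate handling and the pentose phosphate pathway were followed through 4 RNA-seq libraries of mouse pre-B cells. They are 37 genes, chosen by symbol from the 23284 gene symbols in the files: 2 glucose transporters, 3 hexokinases, 9 genes of upper glycolysis, 7 of lower glycolysis, 7 of lactate and pyruvate handling, 6 of the pentose phosphate pathway, and the 3 genes Hif1a, Egln1 and Bnip3 of the hypoxia-inducible factor (HIF) axis. The pre-B cells came from bone marrow of C57BL/6J mice. At steady state they were taken from wild type marrow and from marrow transgenic for STAP-2, signal-transducing adaptor protein-2. At 1 month after transplantation they were taken from wild type marrow and from marrow labelled STAP-2 knockout. Each group has 1 library, and values below are in that order unless the library is named: wild type and transgenic at steady state, then wild type and labelled knockout after transplantation. The labels do not give the promoter of the transgene, the hosts of the transplants, the age or number of mice, or how the cells were sorted.

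Glycolysis splits glucose into pyruvate and yields ATP and NADH without oxygen. Pyruvate is either reduced to lactate, which leaves the cell through monocarboxylate transporters, or enters the mitochondria through pyruvate dehydrogenase. The pentose phosphate pathway branches off at glucose 6-phosphate and supplies NADPH and the ribose for nucleotides, which dividing large pre-B cells need in quantity and resting small pre-B cells need less. Many of these genes are known targets of HIF-1 and of Myc.

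Levels are FPKM, read counts scaled to transcript length and library size, and differences are of log2(FPKM + 1), a scale that understates the change of low genes. A gene entered a comparison if at least 1 of its libraries read 1 FPKM or more. Because each group has 1 library, no difference could be tested against the spread between animals, and no p-value is given. Ratios of FPKM carry a 95% exact Clopper-Pearson interval from reads estimated from the FPKM steps, about 7320000, 7260000, 7740000 and 8670000 reads per library. These intervals cover counting error only, and the reads carry no molecular identifiers that would make each an independent molecule. Only if each read were an independent molecule would an interval that leaves out 1 set the difference of these libraries beyond counting error. It does not say that the conditions differ. The intervals are not adjusted for their number, so some can leave out 1 by counting error alone.

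Stap2, the targeted gene, was read at 0.212, 0.536, 0 and 0.179 FPKM, from 2, 5, 0 and 2 estimated reads. It was near 0 in every library and so does not check the genotype labels. The 14 pre-B markers summed to 8900, 8079, 8533 and 7970 FPKM and none was at 0, with Cd79a between 1624 and 1952 FPKM. The titles carry 1 code for the steady-state pair and another for the transplanted pair, with no word on what it stands for. Transplantation and whatever the code marks cannot be told apart. Markers of other cells were not level. The 16 neutrophil markers found summed to 780, 1864, 1724 and 663 FPKM with none at 0, led by S100a8 and S100a9. Monocyte and macrophage markers summed to 57.2, 91.8, 139 and 57.5 FPKM, with Cd14 at 0 in the labelled knockout library. The 12 cycling cell markers summed to 863, 1141, 761 and 1393 FPKM. Sums ranged from 115 to 230 FPKM for erythroid, 313 to 705 for plasma cell, 5.63 to 50.3 for eosinophil and mast cell, 1.75 to 11.8 for platelet, and 4.40 to 9.27 for T and NK cell markers. In such bulk samples, fewer cells of a type and less RNA per cell cannot be told apart.

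Short words known from HIF and Myc targets were counted in the members' promoters. HIF-1 is known to bind a core that reads ACGTG or GCGTG, and Myc and related factors bind the E-box CACGTG, which holds ACGTG on both strands. The words were searched on both strands in the 250 bases before each RefSeq start on GRCm38.p6, where 36 of the 37 members have an entry and Slc2a3 has none. ACGTG was present for 16 of 36 members (44.4%), against 18.5% of all genes with a promoter and 25.7% of those at 1 FPKM or more in any library (expressed genes). GCGTG was present for 26 (72.2%), against 30.9% and 50.7%. CACGTG was present for 6 (16.7%), against 6.86% and 10.2%. The GC box GGGCGG was present for 25 (69.4%), against 35.4% and 63.8%. A gene counted if any of its starts held the word, and genes differ in their number of starts. Counted by start, the 4 words in that order were in 38%, 60%, 12% and 56% of the members' 50 windows. They were in 16.6%, 28.2%, 6.02% and 32.7% of all 32851 windows. The members' windows had a median GC content of 60.4%, near the 59.6% of expressed genes and above the 52.4% of all windows. A match describes the letters in this window and does not show that a factor was bound there. The stretches below are from 6 members whose values are described later, with each ACGTG or GCGTG, on either strand, in capitals.
Ldha, first start, chr7:46845647-46845786, plus strand: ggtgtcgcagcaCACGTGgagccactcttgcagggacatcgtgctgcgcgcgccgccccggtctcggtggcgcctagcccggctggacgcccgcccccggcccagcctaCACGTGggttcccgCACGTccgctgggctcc
Ldha, second start, chr7:46847011-46847039, plus strand: tctgaaattgcgCACGCgcactgccttcc
Pgk1, chrX:106186938-106186985, plus strand: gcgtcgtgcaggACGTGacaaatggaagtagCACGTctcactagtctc
Slc16a1, chr3:104638452-104638546, plus strand: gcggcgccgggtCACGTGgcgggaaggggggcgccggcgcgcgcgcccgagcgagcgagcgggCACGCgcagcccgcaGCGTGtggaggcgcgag
Slc16a3, chr11:120949028-120949066, plus strand: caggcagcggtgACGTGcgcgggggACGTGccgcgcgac
Hk3, chr13:55021525-55021553, minus strand: actacattttgaCACGTtgcctagttcaa
Gapdh, chr6:125165801-125165839, minus strand: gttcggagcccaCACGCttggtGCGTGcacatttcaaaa
The first Ldha window holds 5 matches, among them CACGTG at 2 places, and Slc16a1 holds 4, with CACGTG towards the 5′ end. Pgk1 and Slc16a3 each hold ACGTG at 2 places without an E-box. Hk3 has a single match and Gapdh has GCGTG only.

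The pathway was present in pre-B cells at every step, and a few genes held most of its RNA. Of the 37 members, 36 reached 1 FPKM in some library and 33 in all 4. Pgls, which opens the lactone ring in the pentose phosphate pathway, was highest with a mean of 358 FPKM. Gapdh followed with 211, then Taldo1 with 132, Aldoa with 119 and Pkm with 115. Eno2, the neuronal enolase, stayed at 0, 0.170, 0.0532 and 0.142 FPKM and entered no comparison. Summed over all members the level was 1666, 1768, 1789 and 1878 FPKM. The median member varied 1.31-fold between its highest and lowest library, against 1.27-fold for the genes at 1 FPKM or more in any library. The wild type library at steady state held the lowest value of 18 members and the highest of 5, whereas over all those genes it was lowest for 22.6% and highest for 31.6%. Under rescaling to the same sum of all genes, that library was lowest for 12 members and highest for 8. The summed level was then highest in the labelled knockout library, at 1877 FPKM against 1627 to 1666, as it was before. Under the 3 other scalings tried, the wild type library at steady state was lowest for 18 to 19 members and highest for 3 to 5. The shares of 22.6% and 31.6% are as deposited and are no background for rescaled counts.

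**Figure D1:**
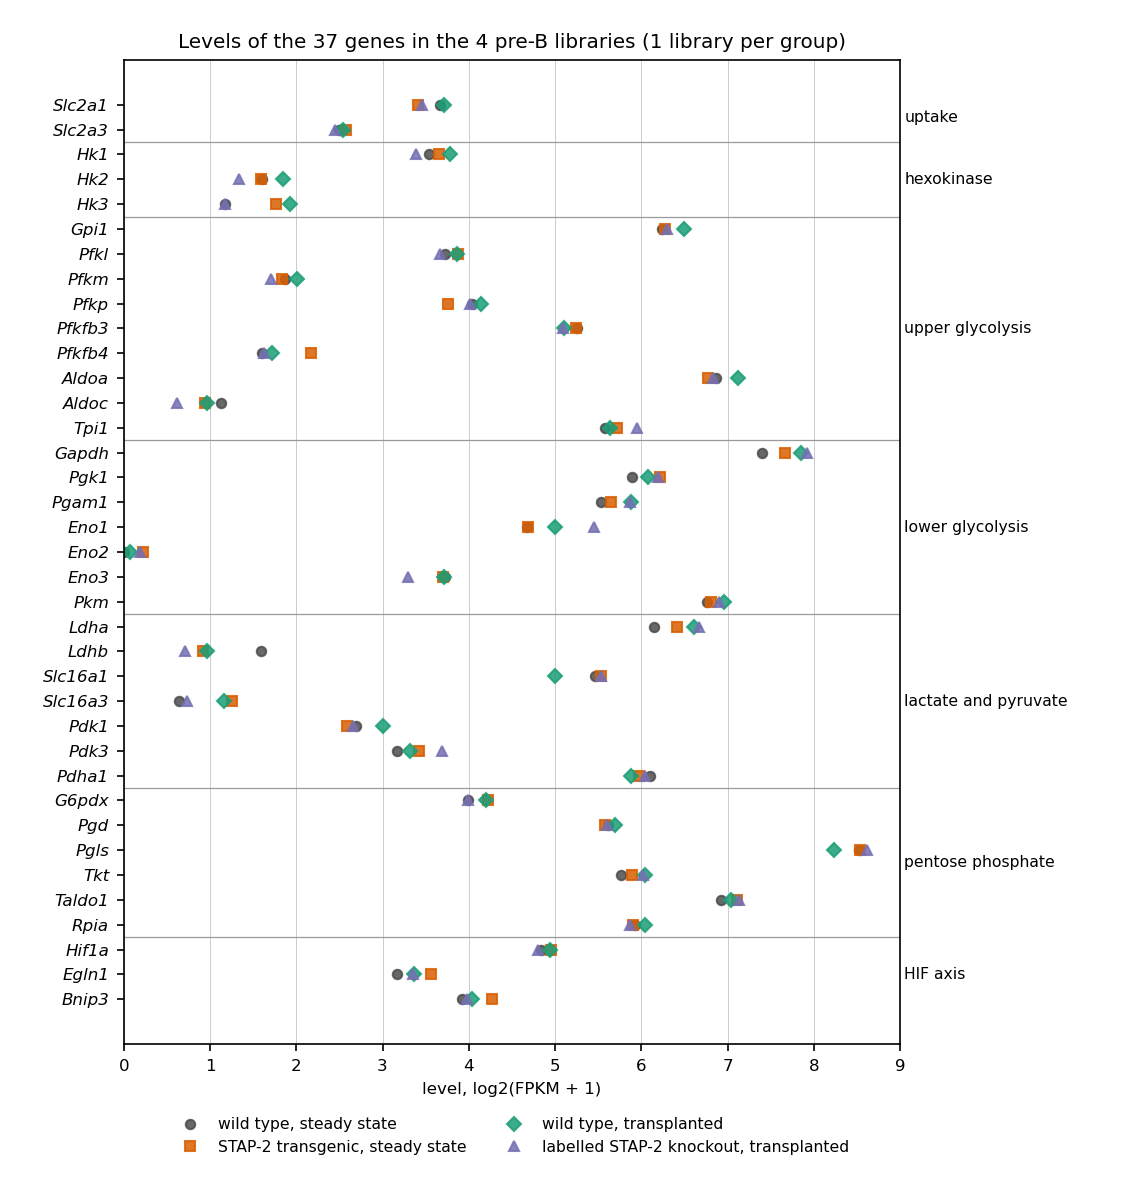
Level of each of the 37 members as log2(FPKM + 1) on the x axis, grouped by role, with 1 point for each of the 4 libraries. Most members have 4 close points, while Hk3, Pfkfb4, Ldhb, Slc16a3, Eno1 and Slc16a1 are spread more widely.

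Glucose enters through Slc2a1 (GLUT1) and Slc2a3 (GLUT3). Slc2a1 was read at 11.7, 9.66, 12.2 and 10.03 FPKM. Both wild type libraries were higher than the library they are paired with, and the wild type level was 1.21-fold the transgenic (1.01 to 1.46) and 1.21-fold the labelled knockout (1.02 to 1.44). Slc2a3 lay between 4.48 and 4.99 FPKM, and its intervals held 1 in all 3 comparisons. Slc2a1 was the most abundant of 7 transporters at 35.4% to 42.2% of their summed FPKM, and Slc2a8, an intracellular transporter, held 23.5% to 29.5%.

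Hexokinases trap glucose as glucose 6-phosphate. Hk1, the widely expressed form, was read at 10.6, 11.6, 12.8 and 9.51 FPKM and made up 70.2% to 77.4% of the 3. Hk2, the inducible form, was read at 2.03, 2.02, 2.60 and 1.52 FPKM. Hk3, a form best known from myeloid cells (chr13:55005985-55021385, minus strand), was read at 1.26, 2.39, 2.81 and 1.26 FPKM. Hk3 thus stood at about the same low level in the wild type steady-state and labelled knockout libraries and higher in the other 2. All 3 hexokinases were lower in the labelled knockout library than in the transplanted wild type library, by 1.34-fold for Hk1 (1.15 to 1.57), 1.71-fold for Hk2 (1.18 to 2.46) and 2.22-fold for Hk3 (1.38 to 3.46). Each interval left out 1, and each direction held under the 4 other scalings of the libraries. In the transgenic library Hk3 was 1.90-fold the wild type (1.13 to 3.13), while the intervals of Hk1 and Hk2 held 1. Among wild type libraries Hk3 was 2.23-fold higher after transplantation (1.36 to 3.60) and Hk1 1.2-fold (1.02 to 1.41).

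Neutrophil markers, like Hk3, were high in the transgenic and transplanted wild type libraries and low in the other 2. They were higher for 16 of 16 in the transgenic comparison and in the wild type comparison, with median log2 differences of 1.12 and 1.02, and lower for 16 of 16 in the labelled knockout comparison, with a median of -1.32. The monocyte and macrophage sum was also high in those 2 libraries, with Lyz2 and Ly6c2 its largest terms. Of its markers that passed the filter, 5 of 7 were higher in the transgenic library, 9 of 9 were higher in the transplanted wild type than at steady state, and 9 of 9 were lower in the labelled knockout library. In the transgenic library Cd68 was lower, at 3.78 against 4.60 FPKM. Slc16a3 (MCT4, an exporter of lactate) was likewise high in the transgenic and transplanted wild type libraries. It was read at 0.564, 1.39, 1.24 and 0.658 FPKM from 9, 22, 21 and 12 estimated reads. It was 2.46-fold higher in the transgenic than in the wild type library (1.09 to 6.08), and its intervals in the other comparisons held 1. Pfkfb4, a kinase and phosphatase of fructose 2,6-bisphosphate, was read at 2.03, 3.49, 2.29 and 2.08 FPKM and was high in the transgenic library alone, 1.72-fold the wild type (1.18 to 2.48). The sum of the 9 eosinophil and mast cell markers was high there alone too, at 5.63, 50.3, 9.30 and 8.37 FPKM. Its largest term there was Prg2, at 3.46, 35.1, 4.09 and 1.46, and Ear1 was at 0 in the other 3 libraries. Not every marker of this list had that shape. Mcpt8 was at 0 in the transgenic library and highest in the labelled knockout library, where Cpa3 was highest too. The part of neutrophil, monocyte or eosinophil RNA in the values of Hk3, Slc16a3 and Pfkfb4 was not tested.

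**Figure D2:**
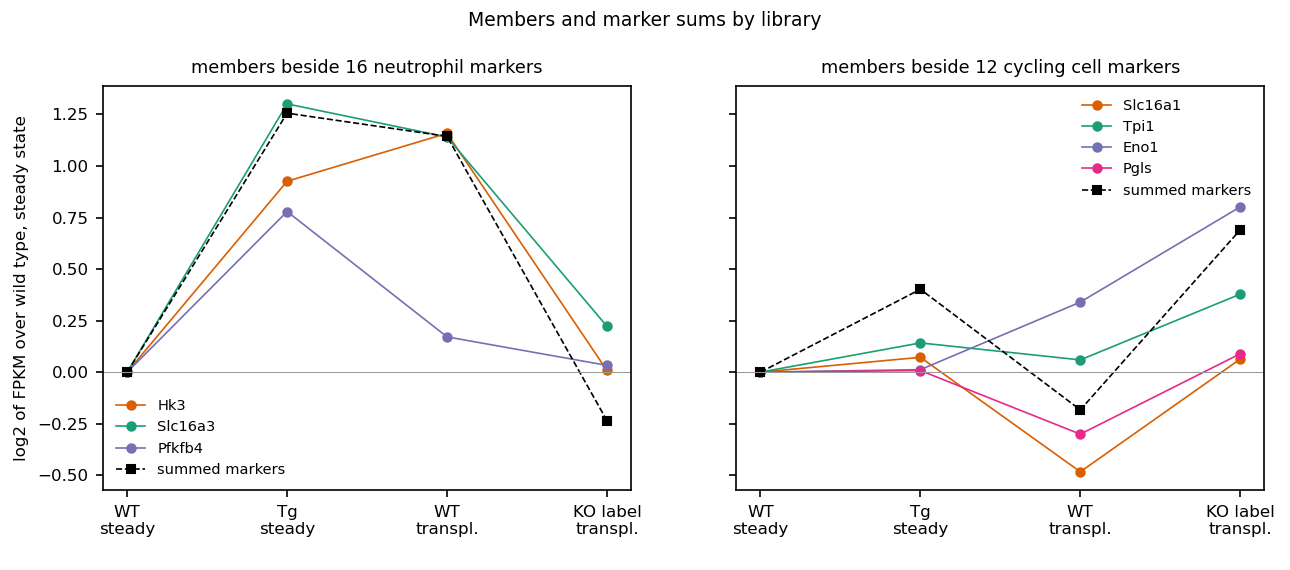
Log2 of FPKM over the wild type steady-state library, by library, for single members (circles) and for the summed markers (black squares), with lines only to guide the eye. On the left, Hk3, Slc16a3 and Pfkfb4 stand beside the neutrophil sum of 780, 1864, 1724 and 663 FPKM, and Pfkfb4 is high in the transgenic library alone. On the right, Slc16a1, Tpi1, Eno1 and Pgls stand beside the cycling cell sum of 863, 1141, 761 and 1393 FPKM. Unlike that sum, Eno1 and Tpi1 are higher in the transplanted than in the steady-state wild type library.

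In upper glycolysis, Gpi1 turns glucose 6-phosphate into fructose 6-phosphate and was read at 74.4, 76.5, 89.6 and 77.6 FPKM. The transplanted wild type library was above the other 3, 1.2-fold over steady state (1.12 to 1.29), and the labelled knockout library was 1.15-fold below it (1.08 to 1.23). Aldoa, the main aldolase, had the same shape at 116, 108, 138 and 113 FPKM, 1.19-fold over steady state (1.1 to 1.29) and 1.23-fold lower in the labelled knockout library (1.13 to 1.32). Both of these comparisons use the transplanted wild type library, so they are not independent.

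Phosphofructokinase, which commits the sugar to glycolysis, came mainly as Pfkp and Pfkl. Pfkp was read at 15.4, 12.5, 16.7 and 15.2 FPKM and was 1.23-fold lower in the transgenic than in the wild type library (1.05 to 1.44). Pfkl was read at 12.2, 13.6, 13.5 and 11.7 FPKM, with intervals that held 1. The share of Pfkp in the 3 isoenzymes was 43.6% in the transgenic library and 50.2% to 52.1% in the others. Pfkm, the muscle form, stayed between 2.26 and 3.01 FPKM. Pfkfb3, which makes the activator fructose 2,6-bisphosphate, lay between 33.0 and 37.3 FPKM and held 73.3% to 74.9% of the 4 Pfkfb genes. Aldoc was low, at 0.539 to 1.19 FPKM.

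Tpi1, which interconverts the triose phosphates, was the 1 upper member that was higher in the labelled knockout library. It was read at 46.7, 51.5, 48.7 and 60.7 FPKM, 1.25-fold over the transplanted wild type (1.09 to 1.43). The other 7 upper members that passed the filter were lower there, and under each of the 4 other scalings 2 of the 8 were higher, Tpi1 and Pfkfb3.

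Lower glycolysis, which yields ATP, was lowest in the wild type library at steady state, with sums of 417, 473, 522 and 541 FPKM. Gapdh was read at 168, 203, 231 and 241 FPKM, and wild type at steady state was lowest. It was 1.21-fold higher in the transgenic library (1.12 to 1.30) and 1.37-fold higher in the transplanted wild type (1.28 to 1.47). Pgk1, which makes the first ATP of the pathway, was read at 58.3, 73.6, 66.7 and 72.2 FPKM, 1.26-fold higher in the transgenic library (1.14 to 1.40). Pgam1, a mutase, was read at 45.3, 49.0, 57.9 and 57.6 FPKM. Its interval left out 1 only between the wild type libraries, at 1.28-fold (1.14 to 1.44). Pkm, the pyruvate kinase listed under its older symbol Pkm2, was read at 108, 111, 123 and 118 FPKM.

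The enolases parted. Eno1 (chr4:150236721-150248879, plus strand), the widely expressed form, was read at 24.5, 24.7, 31.0 and 42.7 FPKM and was highest in the labelled knockout library, 1.38-fold over the transplanted wild type (1.22 to 1.56). Eno3, the muscle form, was read at 12.3, 11.98, 12.1 and 8.81 FPKM and was 1.38-fold lower in that library (1.04 to 1.82). Eno1 made up 66.5%, 66.9%, 71.3% and 82.5% of enolase FPKM, and Eno3 33.3%, 32.4%, 27.8% and 17.0%. The balance of the enolases therefore lay furthest towards Eno1 in the labelled knockout library.

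**Figure D3:**
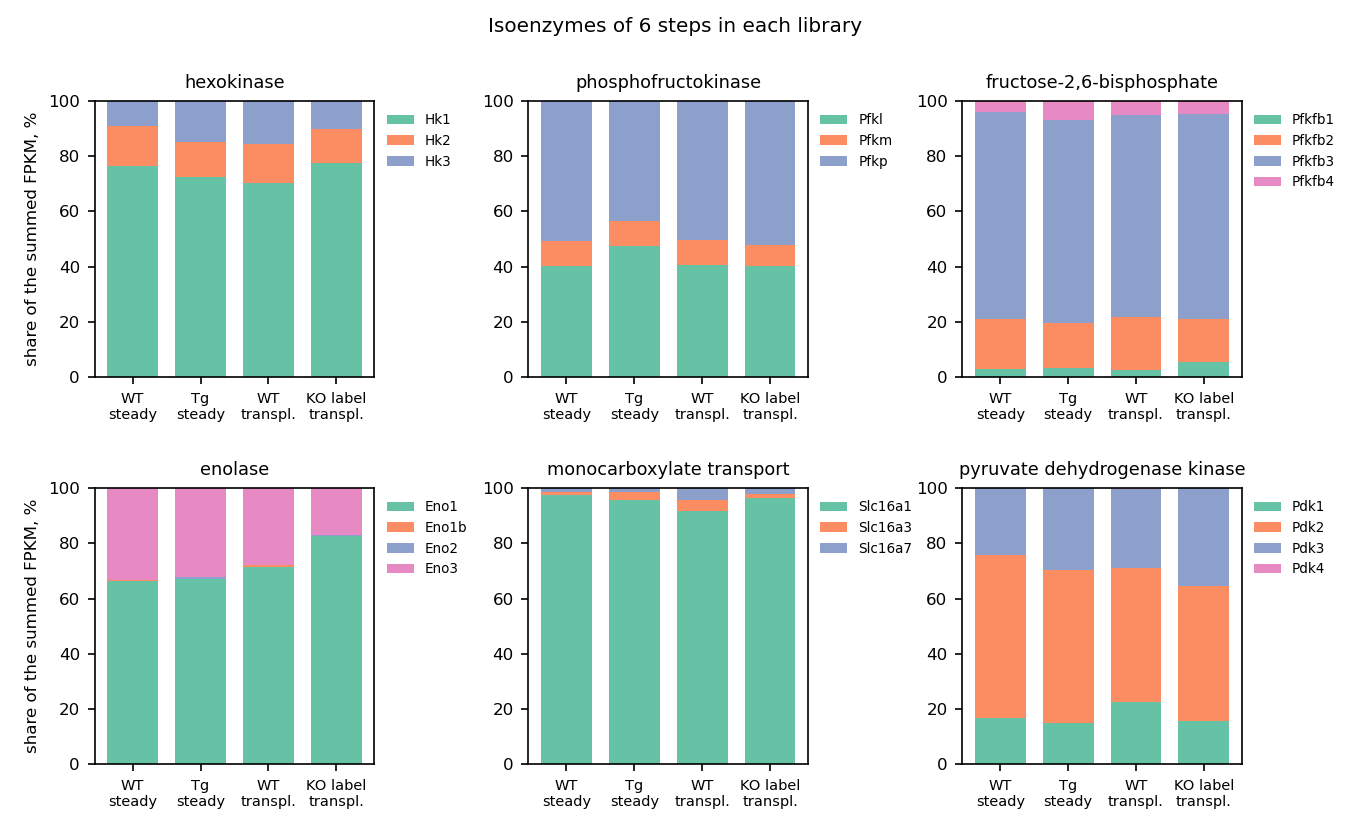
Share of the summed FPKM of a step, in percent, held by each isoenzyme in each of the 4 libraries, for 6 steps. The Eno1 share runs from 66.5% to 82.5%, the Pfkp share is lowest in the transgenic library at 43.6%, and the Pdk2 share is 59.2% in the wild type steady-state library and 48.3% in the transplanted one.

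Lactate dehydrogenase A (Ldha), which favours lactate, was read at 69.7, 84.4, 96.8 and 100.4 FPKM. Wild type at steady state was again lowest, 1.21-fold below the transgenic library (1.09 to 1.34) and 1.39-fold below the transplanted wild type (1.26 to 1.53). Its partner Ldhb was read at 2.02, 0.890, 0.953 and 0.638 FPKM, from 16, 7, 8 and 6 estimated reads. Ldhb was highest where Ldha was lowest, but at these counts its intervals held 1. Ldha made up 97.2% to 99.4% of lactate dehydrogenase FPKM.

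Slc16a1 (MCT1, chr3:104638668-104658462, plus strand), a proton-linked lactate and pyruvate transporter, was read at 43.2, 45.4, 30.9 and 45.2 FPKM. The transplanted wild type library alone was low. The labelled knockout library was 1.46-fold above it (1.35 to 1.58), and it was 1.40-fold below steady state (1.29 to 1.52). Pgls had a like shape, at 369, 371, 299 and 392 FPKM, 1.31-fold higher in the labelled knockout library (1.23 to 1.39) and 1.23-fold lower after transplantation (1.16 to 1.31). The summed cycling cell markers were also lowest in the transplanted wild type library and highest in the labelled knockout library, although Mcm2 and Pcna were lowest in wild type at steady state and Tyms was highest in the transgenic library. They were higher in the labelled knockout library for 12 of 12, with a median log2 difference of 0.98, and in the transgenic library for 12 of 12, with a median of 0.41. Between the wild type libraries, 10 of 12 were lower after transplantation, with a median of -0.26. Eno1 went the other way there, 1.27-fold higher after transplantation (1.09 to 1.47), and the interval of Tpi1 held 1. In the transgenic comparison the intervals of Slc16a1, Pgls, Tpi1 and Eno1 held 1 as deposited. Under the same-sum rescaling that of Pgls lay below 1. The part of cycling cells in the values of these 4 members was not tested.

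Pyruvate dehydrogenase kinases switch off the entry of pyruvate into the mitochondria. Pdk1, a HIF-1 target, was read at 5.48, 4.99, 7.03 and 5.30 FPKM, highest in the transplanted wild type library and 1.33-fold lower in the labelled knockout (1.11 to 1.59). Pdk3 was read at 7.99, 9.75, 8.99 and 11.9 FPKM and was 1.33-fold higher in the labelled knockout (1.06 to 1.67). The 2 kinases thus went opposite ways in that comparison. Pdk2, which is no member, held the largest share of the 4 kinases in every library, 48.3% to 59.2%. Pdha1, the catalytic subunit that they act on, was read at 67.4, 61.8, 57.8 and 65.2 FPKM. It was 1.13-fold higher in the labelled knockout library (1.05 to 1.22) and lower than wild type at steady state in both the transgenic library, by 1.09-fold (1.01 to 1.18), and the transplanted wild type, by 1.17-fold (1.08 to 1.26).

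The median pentose phosphate enzyme varied 1.17-fold between its highest and lowest library. G6pdx, the entry enzyme that makes NADPH, was read at 14.9, 17.6, 17.3 and 14.9 FPKM and Pgd, the second NADPH source, at 48.0, 46.9, 50.8 and 47.4. Of the non-oxidative branch, Tkt (transketolase) was read at 53.4, 58.6, 65.1 and 64.1 FPKM. It was 1.22-fold higher in wild type after transplantation (1.13 to 1.32) and 1.1-fold higher in the transgenic library (1.01 to 1.19). Taldo1 (transaldolase) was 1.14-fold higher in the transgenic library (1.04 to 1.24), at 137 against 120 FPKM. Under the same-sum rescaling the transgenic intervals of Tkt and Taldo1 held 1, and those of Pgd and Pgls lay below 1. Rpia, which makes ribose 5-phosphate, lay between 57.3 and 64.9 FPKM.

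On the HIF axis, all 3 genes were highest in the transgenic library as deposited, although under the same-sum rescaling Hif1a was level with the transplanted wild type. Egln1, a prolyl hydroxylase that marks HIF for destruction and is itself a HIF target, was read at 8.02, 10.8, 9.29 and 9.23 FPKM, 1.34-fold higher there than in wild type (1.11 to 1.62). Bnip3, a mitophagy receptor and HIF target, was read at 14.2, 18.2, 15.5 and 14.7 FPKM. Hif1a lay between 27.0 and 30.1 FPKM and was 1.11-fold lower in the labelled knockout than in the transplanted wild type library (1.01 to 1.21). Under each of the 4 other scalings that interval held 1.

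Against wild type at steady state, the transgenic library was higher for 23 of the 36 members that passed the filter, beside 46.7% of all 10843 genes tested, with a median log2 difference of 0.081 beside -0.018. On the log2(FPKM + 1) scale Hk3 and Slc16a3 were past 1.5-fold higher, beside 3.81% of all genes, and Ldhb lower, beside 2.31%. No member passed 2-fold on that scale, which 1.90% of all genes did in either direction. By plain FPKM ratio Slc16a3 was 2.46-fold, Hk3 1.90-fold and Pfkfb4 1.72-fold higher, and Ldhb was 2.27-fold lower. The interval lay above 1 for 10 members (Hk3, Pfkfb4, Gapdh, Pgk1, Ldha, Slc16a3, G6pdx, Tkt, Taldo1 and Egln1), below 1 for Slc2a1, Pfkp and Pdha1, and held 1 for 23. The share of all genes with such intervals was not computed in any comparison, so these counts have no background. Genes with many reads leave out 1 at small ratios. Rescaling the libraries to the same sum of all genes moves the median of all genes to -0.13, and then 16 of 36 members were higher with a median of -0.028. For that count the 46.7% of all genes as deposited is no background. The interval then lay above 1 for 7, without G6pdx, Tkt and Taldo1, and below 1 for 6, with Aldoa, Pgd and Pgls added. The members' median stayed above that of all genes, but the split between higher and lower members depends on this scaling.

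The labelled knockout library was higher than the transplanted wild type for 10 of 34 members that passed, beside 44.0% of 10790 genes, with a median of -0.090 beside -0.034. On the log2(FPKM + 1) scale Hk3 alone passed 1.5-fold, as lower, beside 4.39% of all genes. No member was 1.5-fold higher on that scale, beside 3.76%, and none passed 2-fold, beside 1.84%. By plain FPKM ratio Hk2 was 1.71-fold, Slc16a3 1.89-fold and Hk3 2.22-fold lower. The interval lay above 1 for 6 members, namely Tpi1, Eno1, Slc16a1, Pdk3, Pdha1 and Pgls. It lay below 1 for 10 (Slc2a1, the 3 hexokinases, Gpi1, Aldoa, Eno3, Pdk1, Rpia and Hif1a) and held 1 for 18. Eno2, Aldoc and Ldhb were under the filter. Under the rescaling to the same sum, 18 of 34 were higher, with a median of 0.0028 beside 0.062 for all genes. The 44.0% as deposited is no background for that count. The interval then lay above 1 for 10, with Gapdh, Pgk1, Ldha and Taldo1 added, and below 1 for 6, without Slc2a1, Eno3, Rpia and Hif1a. By role, uptake (2 of 2), hexokinases (3 of 3) and the HIF axis (3 of 3) were lower, and lactate and pyruvate genes were higher for 4 of 6. Under the same-sum rescaling the hexokinases were still lower for 3 of 3, while 1 uptake gene and 2 HIF axis genes turned higher. Egln1, at nearly equal levels, turned higher under each of the 4 scalings.

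Between the wild type libraries, which both also serve as references above, the transplanted library was higher for 29 of 36 members, beside 45.9% of 10835 genes, with a median of 0.13 beside -0.022. On the log2(FPKM + 1) scale Hk3 was past 1.5-fold higher, beside 5.20% of all genes, and Ldhb lower, beside 2.28%. No member passed 2-fold on that scale, beside 2.30%. By plain FPKM ratio Hk3 was 2.23-fold and Slc16a3 2.21-fold higher, and Ldhb was 2.12-fold lower. The interval lay above 1 for 12 members (Hk1, Hk3, Gpi1, Aldoa, Gapdh, Pgk1, Pgam1, Eno1, Pkm, Ldha, Pdk1 and Tkt), below 1 for Slc16a1, Pdha1 and Pgls, and held 1 for 21. With the same-sum rescaling 25 of 36 were higher, and the medians were 0.048 for the members and -0.12 for all genes. The 45.9% as deposited is no background for that count. The interval then lay above 1 for 8 and below 1 for 4. The direction held under all 4 other scalings for 31 members here, against 26 in each of the other comparisons.

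**Figure D4:**
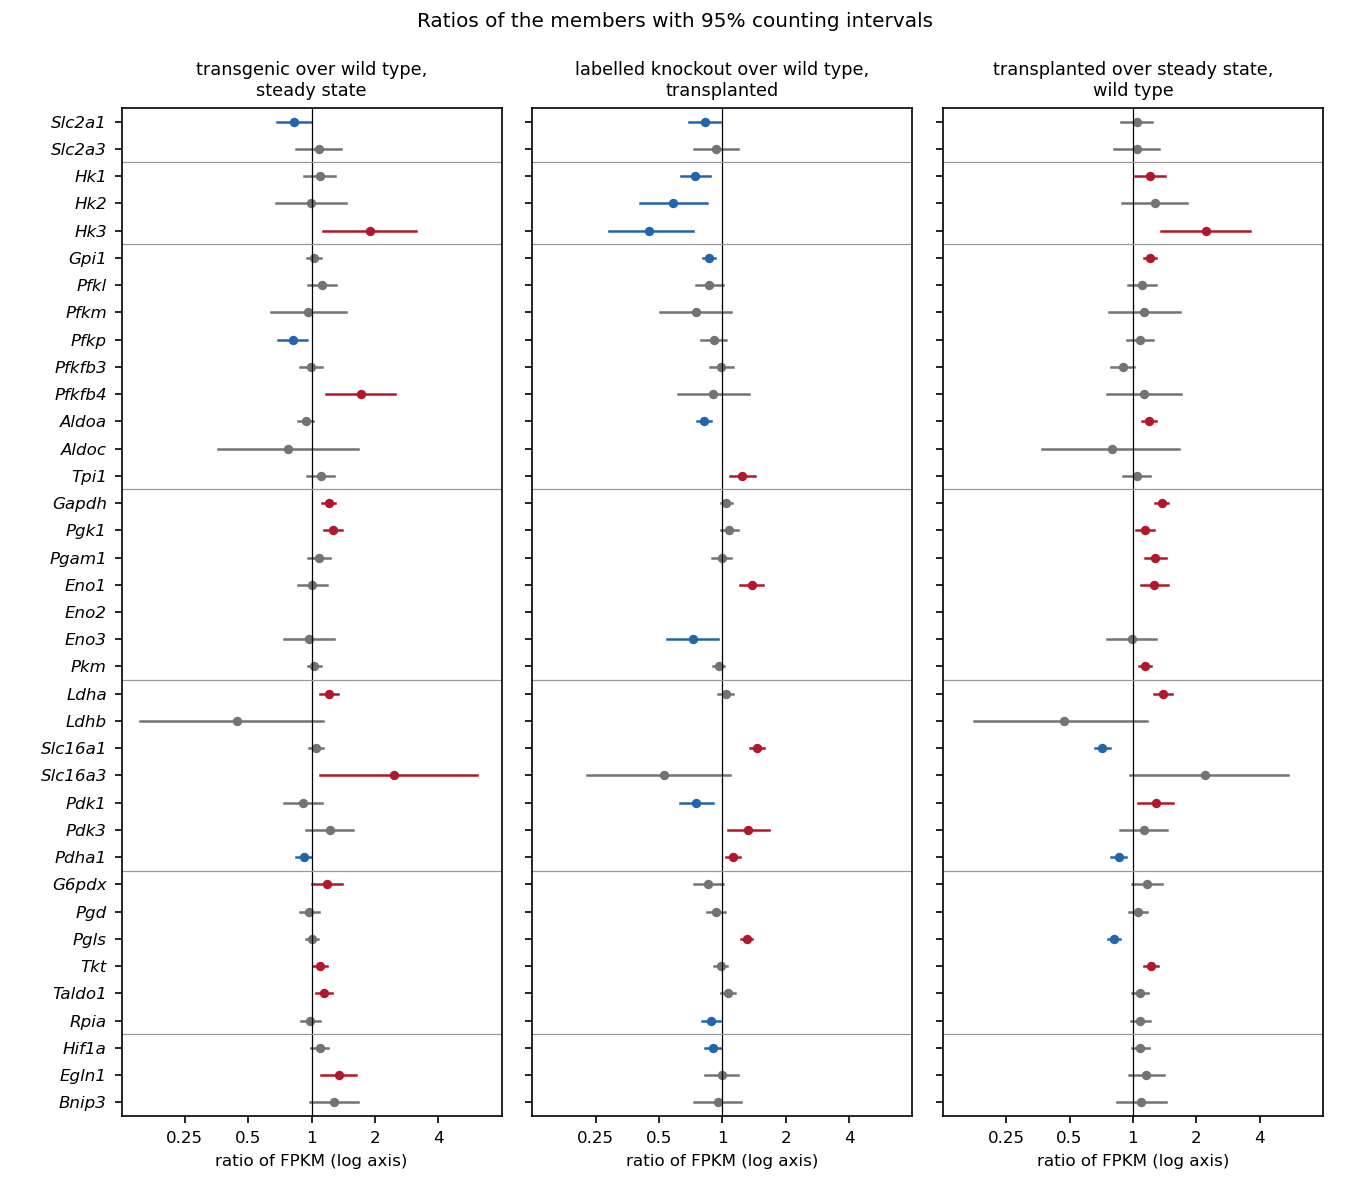
Ratio of FPKM (x axis, log scale) of each member in the 3 comparisons, with 95% counting intervals as bars, red above 1, blue below 1 and grey where the interval holds 1. Hexokinases are blue in the labelled knockout panel, and Gapdh and Ldha are red in the left and right panels. Members under 1 FPKM in both libraries have no point.

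Other genes of these pathways were taken from lists. Their counts are given for the transgenic, the labelled knockout and the wild type comparison in turn, and then under the same-sum rescaling. As deposited, 46.7%, 44.0% and 45.9% of all genes were higher. The rescaling moved the median of all genes to -0.13, 0.062 and -0.12, so those shares are no background for the rescaled counts. Of 18 further HIF axis genes and targets 14 passed the filter in each comparison, and 5, 4 and 6 of them were higher, or 3, 5 and 5 after rescaling. None of the counts as deposited was above the share of all genes. On the log2(FPKM + 1) scale, 1 gene was past 1.5-fold higher in the transgenic comparison, 0 in the labelled knockout and 3 in the wild type. Of all genes, 3.81%, 3.76% and 5.20% were. On that scale 0 were past 1.5-fold lower in any comparison. Adm, which encodes adrenomedullin, was read at 3.49, 7.03, 10.3 and 7.46 FPKM, 2.02-fold higher in the transgenic library (1.28 to 3.24) and 2.96-fold higher in wild type after transplantation (1.97 to 4.67). Vegfa, the vascular growth factor, was read at 3.44, 4.34, 7.10 and 5.46 FPKM, 2.06-fold higher after transplantation (1.24 to 3.47). Ankrd37 was read at 6.47, 6.32, 14.4 and 11.2 FPKM. Both were lowest in the steady-state libraries.

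Among 15 regulators of glucose use and growth, Myc had the largest difference in the labelled knockout and wild type comparisons. It was read at 10.8, 12.9, 38.0 and 17.2 FPKM, 3.53-fold higher in wild type after transplantation (2.91 to 4.34) and 2.21-fold lower in the labelled knockout than in the transplanted wild type library (1.88 to 2.58). Mtor, the growth kinase, was read at 32.4, 32.0, 32.4 and 43.5 FPKM, and Foxo1, a transcription factor that PI3K signalling holds back, at 111, 78.2, 99.01 and 78.1. In the transgenic comparison Foxo1 had the largest difference, 1.42-fold lower (1.37 to 1.48), and the interval of Myc held 1. Of the 12 that passed, 3, 6 and 3 were higher, or 1, 9 and 2 after rescaling. Of 11 further pentose phosphate and ribose genes 9 passed, and 5, 4 and 5 were higher, or 4, 4 and 4 after rescaling. Prps2, which makes phosphoribosyl pyrophosphate from ribose 5-phosphate, was read at 35.5, 43.1, 50.1 and 45.7 FPKM, and H6pd, the dehydrogenase of the endoplasmic reticulum, at 15.2, 11.99, 13.1 and 9.68.

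Of 15 other genes of sugar transport and trapping 7 passed, with 5, 2 and 4 higher, or 3, 3 and 3 after rescaling. Adpgk, a kinase that phosphorylates glucose with ADP, was read at 20.9, 23.5, 26.3 and 19.2 FPKM, and like the hexokinases it was lower in the labelled knockout than in the transplanted wild type library, by 1.37-fold (1.2 to 1.58). Of 12 other glycolytic isoenzymes and gluconeogenic enzymes 7 passed, with 2, 3 and 0 higher, or 2, 4 and 0 after rescaling. Pfkfb1 was read at 1.53, 1.73, 1.28 and 2.51 FPKM. Of 18 other lactate and pyruvate genes 13, 14 and 14 passed, with 8, 9 and 5 higher, or 6, 10 and 4 after rescaling. Slc16a7 (MCT2) was 2.46-fold higher in wild type after transplantation (1.2 to 5.91), at 1.52 against 0.617 FPKM. The 18 genes of the tricarboxylic acid cycle all passed, with 11, 9 and 7 higher, or 1, 17 and 2 after rescaling, so their direction rests on the scaling. Their median log2 differences were 0.024, 0.017 and -0.014, or -0.094, 0.12 and -0.12 after rescaling. None passed 1.5-fold in any comparison.

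Some of these values may hold reads of other genes. Gapdh matches 78 other annotated genes, 75 of them pseudogenes, at 95% identity or more over at least 200 bases, Bnip3 matches 5, Pgk1 and Ldha 4 each and Eno1 3, and how the authors divided such reads is not given in the sources used here. On the opposite strand, 27.2% of the exonic bases of Bnip3 lie over Gm45507, 21.2% of those of Pdha1 over Map3k15, 17.4% of those of Pfkp over Pitrm1 and 12.3% of those of Gpi1 over Gm26762. On the same strand, 12.9% of those of Pkm lie under Gm49759. The kit keeps strand, but whether the counting used it is not stated, so these values are uncertain to that extent.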

How the data were processed

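Per the labels' protocols, the kits were miRNeasy for total RNA and TruSeq stranded mRNA for the libraries. The submitters' processing notes name the build mm10 and, in no stated role or order, Cufflinks 2.2.1, TopHat2 2.0.13, SAMtools 0.1.19 and Bowtie2 2.2.3. The annotation stands as not given in the sources used here. Values deposited by the authors were taken as FPKM from their range and from Cufflinks, since the headers name no unit, and any scaling between libraries is unstated. From the deposited FPKM, differences of log2(FPKM + 1) were computed for genes that reached 1 FPKM in at least 1 of the pair, and counted at 1.5-fold and 2-fold on that scale. Reads were estimated from the steps that 1 read makes in low values, with transcript lengths (GENCODE M21, GRCm38) shortened by 205 nt. Of 2676 values of 1 to 20 reads, 68.6% lay within 0.1 of a whole read, where 20% would by chance, and genes with several transcripts are less exact.

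With 1 library per group no test was run. The text names all 37 members, Stap2, isoenzymes of named steps, and up to 4 genes per other list and comparison with the largest differences, while Cd79a, S100a9, Cd14, Cd68, Ly6c2, Mcm2, Pcna and Tyms were chosen after their values were seen. The members and lists were chosen with earlier results of these data known. Promoters are from RefSeq. Copies were searched with BLAST 2.17.0. The scripts, in Python 3.11.15 with pandas 2.3.3 and scipy 1.17.1, were tested on simulated data. Alternatives were other pseudocounts, filters and scalings.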

Additional observations from a re-analysis of the deposited data

How the results depend on the processing

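With 1 library per group, leaving out a replicate was not possible, and the spread between animals is unknown. No paired analysis was possible because each group has a single library and no replicate numbers are shared beyond 1. Rescaling to the same sum of all genes moved the members' median to -0.028 in the transgenic comparison, 0.0028 in the labelled knockout comparison and 0.048 in the wild type comparison, and the members higher in the labelled knockout library to 18. It left 1 member past 1.5-fold in the transgenic comparison and 2 in the labelled knockout comparison. With a pseudocount of 5, 0 members passed 1.5-fold in the transgenic, labelled knockout and wild type comparisons, and the wild type median was 0.11. With a filter at 5 FPKM, 0 passed in each of them, because the members past it were low. With a pseudocount of 0.1, 3 passed in the labelled knockout comparison. Of 106 single differences, 16 moved beyond their counting interval under the same-sum rescaling and 3 under the pseudocount of 5, and none changed sign with an interval that left out 1. The counts of intervals under each scaling were added after seeing the data, and under the 3 scalings other than the same sum 10 to 12, 6 to 7 and 12 to 15 members lay above 1 in the transgenic, labelled knockout and wild type comparisons, and 1 to 3, 9 and 3 below. Where estimated reads replaced FPKM, 42 of 92 isoenzyme shares moved beyond their interval, since reads are not per length. Low depth limits Ldhb, Slc16a3, Aldoc and Eno2.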
